A study of Mus musculus with 15 samples.

Results

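The matrix metalloproteinase genes Mmp2, Mmp8, Mmp9, Mmp12, Mmp13, Mmp14 and Mmp19 and the genes of their tissue inhibitors, Timp1, Timp2 and Timp3, were followed in mouse BMDMs, that is, macrophages that M-CSF makes from cultured marrow cells. These 10 genes were found by matching Ensembl identifiers to symbols among the 53465 genes of the count matrix, and all 10 passed the filter on low counts that left 13938 genes for testing. The study asked how IL-6 alters the response of macrophages to IL-4 and IL-13, and its RNAseq held 5 groups of 3 libraries. All cells were grown for 7 days with M-CSF at 20 ng/ml and then kept for 24 h without cytokine (control) or with IL-4 at 10 ng/ml, IL-4 at 10 ng/ml and IL-6 at 40 ng/ml (IL-4+IL-6), IL-13 at 40 ng/ml, or IL-13 at 40 ng/ml and IL-6 at 40 ng/ml (IL-6+IL-13). No group with IL-6 alone was analysed here. The study's methods describe marrow from mice aged 8 to 12 weeks for such cultures, and the labels of the RNAseq libraries name no genotype. The study describes the replicates as biological, but the labels do not tie a library to an animal or a culture, so the p-values measure the spread between these libraries.

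MMPs are zinc-dependent endopeptidases that cleave collagens, elastin, gelatin and other extracellular matrix proteins, and most are secreted as inactive zymogens. TIMPs bind the active site of MMPs and block them, and TIMP2 also takes part, with the membrane-bound MMP14, in the activation of pro-MMP2 at the cell surface. Macrophages are a main source of MMP12, also called macrophage elastase, and MMP activity is controlled at the level of mRNA, of zymogen cleavage and of inhibition, of which the first was measured here.

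The libraries held between 17001352 and 18918686 counts. The biological coefficient of variation, which is the spread between replicates beyond counting noise, was 4.49% in control and 4.54% in IL-4, against 14.9% in IL-4+IL-6, 10.9% in IL-13 and 7.38% in IL-6+IL-13. No 2 libraries of a group agreed within counting noise, since the mean chi-square per gene between replicates, which counting noise alone puts near 1, was at least 2.60. In IL-4+IL-6 replicate 2 stood apart from the others, at 23.8 and 42.2 against 6.97 between replicates 1 and 3, and in IL-13 replicate 1 did, at 20.6 and 15.9 against 3.75 between replicates 2 and 3. Leaving out either library changed no member call against control or with IL-6 on IL-4 or IL-13. Without IL-4+IL-6 replicate 2 the Timp1 difference between both combinations was lost (adjusted p = 0.129), and of the differences between the IL-6 effects on IL-4 and on IL-13 that of Mmp2 was lost (adjusted p = 0.0986) and those of Mmp12 and Timp1 were gained (adjusted p = 0.0166 and 0.0132). Without IL-13 replicate 1 that of Mmp2 was lost (adjusted p = 0.0561). Levels of a gene are given as normalized CPM, in which counts are divided by the library size after TMM scaling. Fold changes are ratios of mean normalized CPM, and log2 fold changes with their SE come from the quasi-likelihood test of edgeR, whose p-values were adjusted over all genes by the Benjamini-Hochberg method. A gene was called higher or lower when its adjusted p was under 0.05, and strongly changed when its log2 fold change was also above 1 or below -1. In these bulk samples, fewer cells of a type and less RNA per cell cannot be told apart.

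The cells were checked against markers of macrophages and of other cells of the marrow. All 10 macrophage markers were above 1 normalized CPM in every group, with sums from 12388 to 22486 over the libraries. The 12 granulocyte markers summed to 503 to 595 normalized CPM in the control libraries and to 1.70 to 3.16 in the 12 cytokine-treated libraries, where Ly6g and Retnlg had a count of 0 throughout. Sums of 10 stromal markers were 18.9 to 25.7 in control and 0.0578 to 0.719 in the treated libraries, and Col1a1, Col3a1, Lum and Bgn were at 0 in all treated libraries. Sums of 8 megakaryocyte and platelet markers, a list written after values had been seen, were 338 to 374 in control and 9.58 to 13.2 in the treated libraries. The 6 markers of mast cells, basophils and eosinophils summed to 18.9 to 22.0 in control and to at most 0.332 in the treated libraries, and the 6 lymphocyte markers to 4.48 to 5.21 and at most 0.900. Control thus stood apart from all 4 treated groups in the markers of these 5 cell types. The 9 osteoclast markers were present in all groups, with sums from 338 in IL-6+IL-13 to 842 in control. The 5 endothelial markers summed to 12.7 to 16.6 in control, 7.25 to 12.1 with IL-4 alone, 11.1 to 17.6 in IL-4+IL-6, 18.5 to 23.7 in IL-13 and 40.2 to 41.0 in IL-6+IL-13. Only 1 of these 5 was above 1 normalized CPM in each group except IL-6+IL-13, where 2 were. The sum therefore rests mostly on 1 or 2 genes and does not by itself show endothelial cells.

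**Figure D1:**
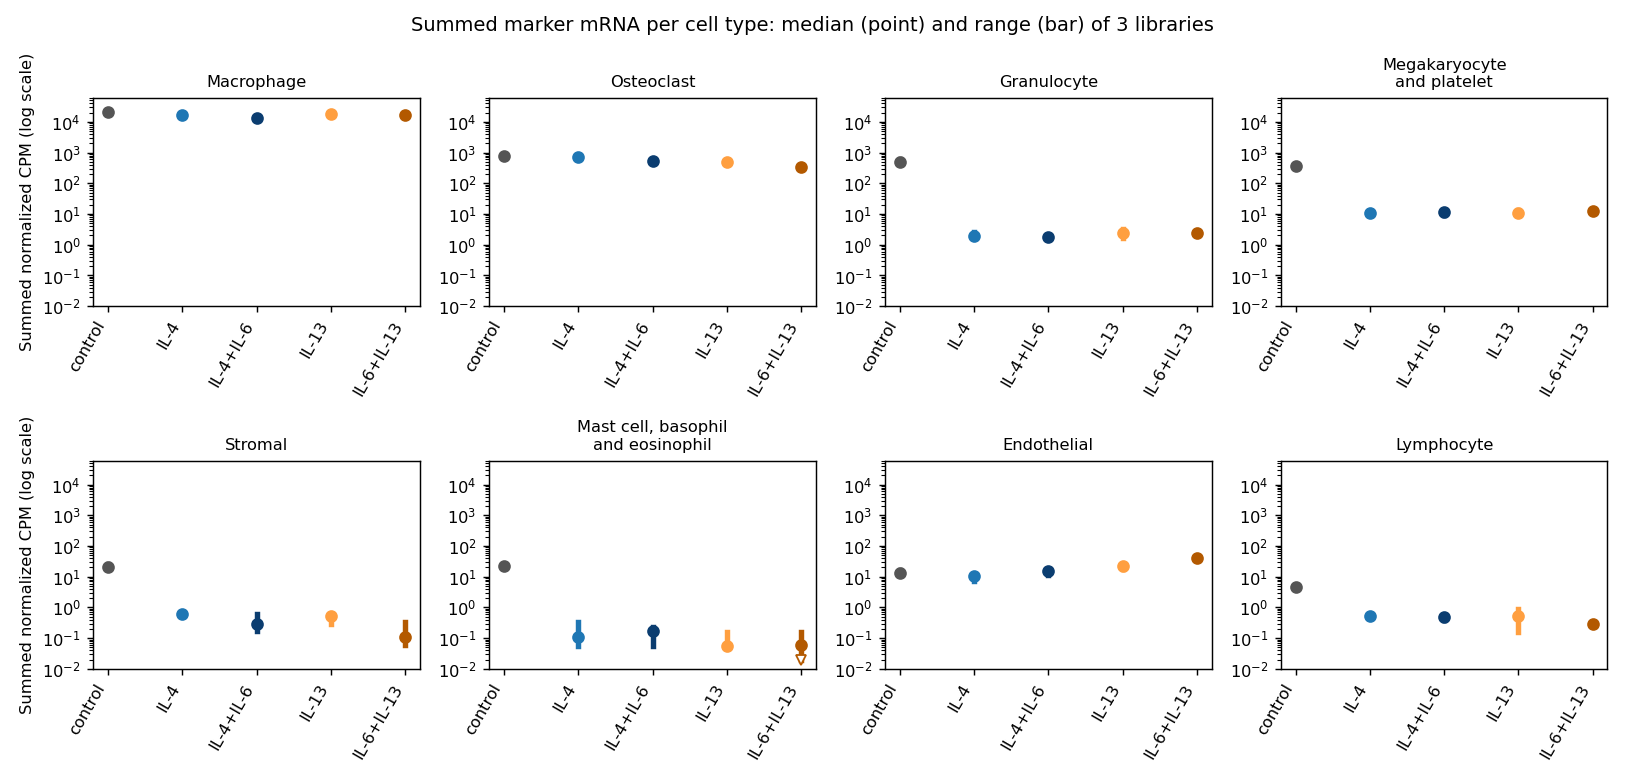
Summed normalized CPM (log scale) of marker genes of 8 cell types in the 5 groups, with the median as a point and the range of 3 libraries as a bar, and an open triangle where a library was at 0. Granulocyte, megakaryocyte, stromal and mast cell markers are high only in control among these groups, and macrophage markers lie between 12388 and 22486 in all of them.

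Promoter sequences are shown for 5 members, because Mmp13 and Timp1 rose with both cytokines, Mmp12 and Mmp14 moved in opposite directions with each cytokine and with IL-6, and Timp2 was the main inhibitor. RefSeq promoters (GRCm38.p6), from 250 bases before to 50 bases after the start site, were found for 7 of the 10 members, and Mmp2, Mmp9 and Mmp19 had none. They are written 5′ to 3′ in lower case, with matches to the searched motifs in capitals:
Mmp12 upstream promoter, chr9:7344147-7344446, plus strand: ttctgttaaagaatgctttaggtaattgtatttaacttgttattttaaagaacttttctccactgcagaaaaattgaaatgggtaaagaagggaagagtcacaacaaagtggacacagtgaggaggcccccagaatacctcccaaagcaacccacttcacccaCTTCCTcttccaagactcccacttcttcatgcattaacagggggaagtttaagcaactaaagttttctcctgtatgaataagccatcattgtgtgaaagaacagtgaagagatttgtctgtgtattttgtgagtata
Mmp12 downstream promoter, chr9:7347124-7347423, plus strand: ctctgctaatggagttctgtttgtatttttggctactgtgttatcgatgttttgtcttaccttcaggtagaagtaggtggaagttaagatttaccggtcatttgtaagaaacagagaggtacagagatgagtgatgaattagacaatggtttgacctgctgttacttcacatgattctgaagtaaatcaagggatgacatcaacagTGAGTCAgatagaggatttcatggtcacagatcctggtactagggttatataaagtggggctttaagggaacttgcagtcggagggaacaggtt
Mmp13 promoter, chr9:7272264-7272563, plus strand: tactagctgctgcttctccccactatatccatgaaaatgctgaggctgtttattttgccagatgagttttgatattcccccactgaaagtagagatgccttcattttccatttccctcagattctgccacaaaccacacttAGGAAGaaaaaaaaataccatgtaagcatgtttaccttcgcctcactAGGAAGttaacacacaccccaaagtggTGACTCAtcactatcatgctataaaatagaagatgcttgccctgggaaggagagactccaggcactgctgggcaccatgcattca
Mmp14 promoter, chr14:54431348-54431647, plus strand: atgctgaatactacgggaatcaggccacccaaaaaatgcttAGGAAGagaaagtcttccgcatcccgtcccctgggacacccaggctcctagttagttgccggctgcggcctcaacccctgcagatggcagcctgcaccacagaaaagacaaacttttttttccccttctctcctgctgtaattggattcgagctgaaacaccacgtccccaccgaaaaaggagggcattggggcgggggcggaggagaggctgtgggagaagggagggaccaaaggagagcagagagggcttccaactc
Timp1 promoter, chrX:20869916-20870215, plus strand: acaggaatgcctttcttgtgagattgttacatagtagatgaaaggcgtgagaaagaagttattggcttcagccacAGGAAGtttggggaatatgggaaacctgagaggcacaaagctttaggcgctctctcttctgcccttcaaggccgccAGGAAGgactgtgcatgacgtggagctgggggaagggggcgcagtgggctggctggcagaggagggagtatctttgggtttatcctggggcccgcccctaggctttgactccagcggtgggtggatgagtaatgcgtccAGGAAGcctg
Timp2 promoter, chr11:118355362-118355661, minus strand: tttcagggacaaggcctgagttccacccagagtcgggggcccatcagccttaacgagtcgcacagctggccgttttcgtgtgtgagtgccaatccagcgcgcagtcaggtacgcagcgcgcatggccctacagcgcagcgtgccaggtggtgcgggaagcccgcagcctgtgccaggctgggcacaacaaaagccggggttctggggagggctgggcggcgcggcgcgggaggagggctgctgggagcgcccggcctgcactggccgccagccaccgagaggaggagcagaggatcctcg

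Both strands were searched for the AP-1 site TGANTCA, for the PEA3 element AGGAAG bound by ETS factors, and for STAT-type palindromes, TTC and GAA with 3 bases (TTCNNNGAA) or with 4 bases between them, the latter being the spacing that STAT6 prefers. An AP-1 site began at -35 from the start site of Mmp13 (TGACTCA) and at -44 in the downstream Mmp12 promoter (TGAGTCA), and no other member promoter held one, against 7.81% of all 32851 promoters. PEA3 elements began at -109 and -62 in Mmp13, at -175, -99 and 41 in Timp1, at -209 in Mmp14, at -204 in Timp3, at -220 in Mmp8 and at -87 in the upstream Mmp12 promoter, on the minus strand in Mmp8 and Mmp12, and 35.4% of all promoters held this element. None of the 8 member promoters held either STAT-type palindrome, which 8.30% and 6.95% of all promoters held, and the Timp2 window held no searched motif. No 2 matches overlapped. The letters of these windows describe the sequence and do not show binding.

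IL-4 alone changed 9 of the 10 members, 5 of them upward and 4 downward. Mmp13 rose about 40-fold and Timp1 about 7-fold, and Mmp9, Mmp12 and Timp2 rose by less than 2-fold, while Timp3, Mmp14, Mmp2 and Mmp19 fell by 5-fold or more. Of all 13938 genes tested, 32.1% were called higher and 35.9% lower with IL-4, and 10.0% and 16.1% were strongly higher or lower, so calls were frequent among all genes. Among the members, 2 were strongly higher and 4 strongly lower, and the median absolute log2 fold change was 2.61, against 0.57 over all genes tested. The members were chosen with earlier results of these data known. Their medians, here and below, are therefore set beside those of all genes only as a description. IL-13 alone called the same members in the same directions, with 29.0% of all genes called higher and 31.1% lower, and 7.74% and 12.6% strongly so. The median absolute log2 fold change of the members with IL-13 was 1.90, against 0.46 over all genes. Both comparisons were made against the same 3 control libraries. In both, Timp3 is counted among the lower members and enters the median. It passed the filter on low counts only through control, so its lower calls are no evidence of their own.

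Adding IL-6 to IL-4 changed 8 members and adding it to IL-13 changed 7. On IL-4, Mmp13, Mmp14, Mmp19, Timp1 and Timp2 were called higher and Mmp8, Mmp9 and Mmp12 lower, where 20.7% of all genes were called higher and 18.7% lower, and 4.34% and 7.47% strongly so. On IL-13, Mmp14, Mmp19, Timp1 and Timp2 were called higher and Mmp2, Mmp8 and Mmp12 lower, where 12.1% of all genes were called higher and 13.5% lower, and 3.06% and 4.19% strongly so. These comparisons share no library. In both, 4 members were higher and 2 lower, which is 6 of the 8 called on IL-4 and 6 of the 7 called on IL-13. Over all genes, the 1347 genes called higher in both were 46.7% of those called higher on IL-4 and 80.0% of those on IL-13, and the 1582 called lower in both were 60.8% and 84.2%. The median absolute log2 fold change of the members was 1.13 on IL-4 and 0.93 on IL-13, against 0.30 and 0.21 over all genes.

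**Figure D2:**
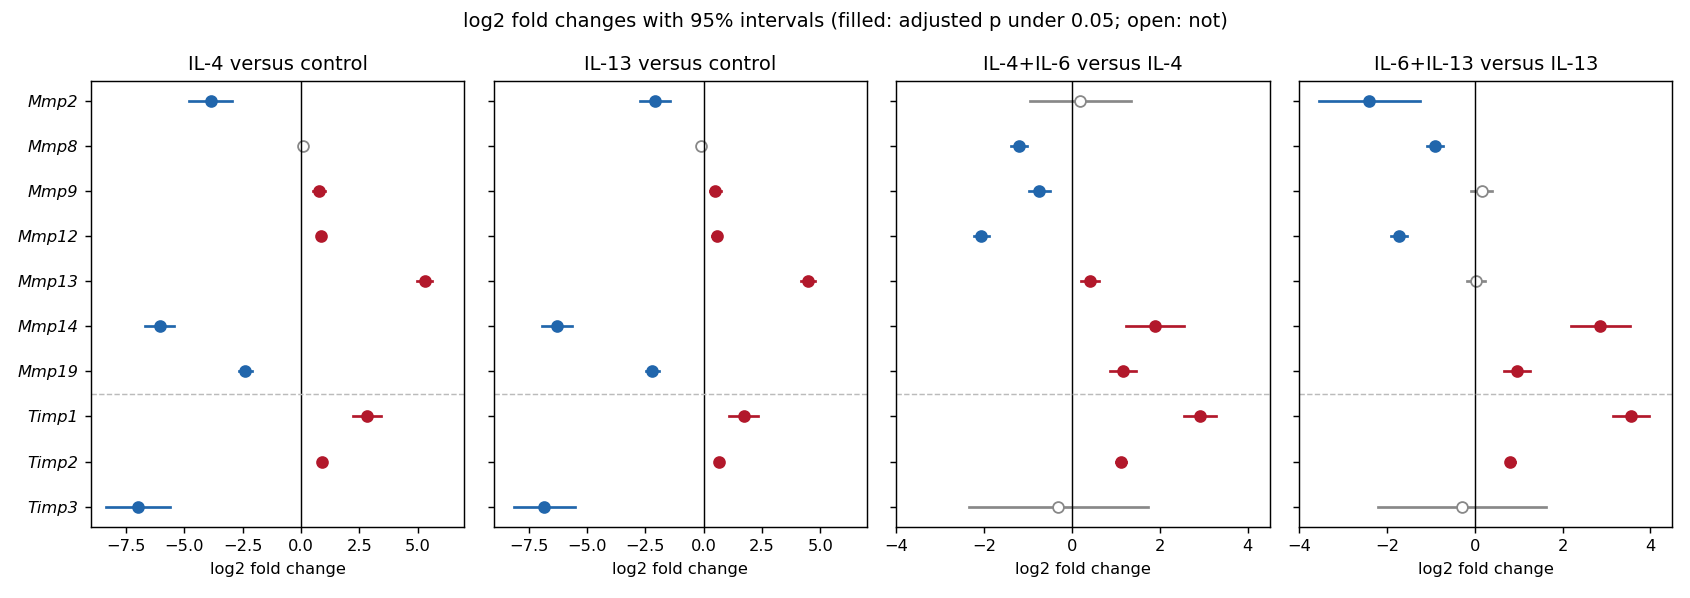
Log2 fold changes (points) with 95% intervals (bars) of the 10 members in 4 comparisons, red when higher and blue when lower with an adjusted p under 0.05, and open grey when not called. Timp3, Mmp14, Mmp2 and Mmp19 lie to the left with IL-4 and with IL-13, and Timp1, Mmp14, Mmp19 and Timp2 lie to the right when IL-6 was added.

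Among the MMPs, Mmp12 (ENSMUSG00000049723, chr9:7344381-7369499, plus strand, GRCm38), which encodes macrophage elastase, was the most abundant in 4 of the 5 groups per unit of gene length. Its normalized CPM was 642, 737 and 609 in the control libraries, 1225, 1141 and 1207 with IL-4, and 253, 312 and 288 with IL-4+IL-6. With IL-13 it was 960, 1013 and 943, and with IL-6+IL-13 284, 319 and 279. The IL-4 and IL-13 libraries all lay above control and those with IL-6 all lay below it. Mmp12 rose 1.80-fold with IL-4 (log2 fold change 0.85, SE 0.08, adjusted p = 1.24e-07) and 1.47-fold with IL-13 (0.55, SE 0.08, adjusted p = 2.27e-05). Adding IL-6 lowered it 4.19-fold on IL-4 (log2 fold change -2.07, SE 0.08, adjusted p = 4.68e-12) and 3.31-fold on IL-13 (-1.72, SE 0.08, adjusted p = 8.08e-11). With IL-6, Mmp12 therefore stood below its level in untreated cells, 2.33-fold in IL-4+IL-6 and 2.25-fold in IL-6+IL-13. The IL-4 libraries were 1.23-fold above the IL-13 libraries (adjusted p = 0.0276), a call that was lost without IL-4 replicate 1 or 3 or IL-13 replicate 2 or 3 (adjusted p up to 0.111). Between both combinations the log2 fold change was -0.05, with a 95% interval from -0.23 to 0.13.

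Of the collagenases, Mmp13 (ENSMUSG00000050578, chr9:7272514-7283331, plus strand), which cleaves fibrillar collagens, had the largest rise of the 7 MMP members with either cytokine. The control libraries held 2.50, 2.82 and 2.07 normalized CPM of Mmp13. With IL-4 the values were 95.2, 91.8 and 106, and with IL-4+IL-6 113, 150 and 128. With IL-13 they were 53.7, 57.5 and 54.1, and with IL-6+IL-13 51.3, 56.6 and 59.5. All treated libraries were far above control, and the IL-4 libraries did not overlap the IL-13 libraries. Mmp13 rose 39.6-fold with IL-4 (log2 fold change 5.30, SE 0.15, adjusted p = 7.33e-15) and 22.3-fold with IL-13 (4.48, SE 0.15, adjusted p = 6.88e-14). Adding IL-6 raised it a further 1.33-fold on IL-4 (log2 fold change 0.41, SE 0.10, adjusted p = 0.00208). On IL-13 the log2 fold change with IL-6 was 0.02, with a 95% interval from -0.19 to 0.23 (adjusted p = 0.924). The difference between these effects was 0.39 on the log2 scale and was not called (95% interval from 0.11 to 0.68, adjusted p = 0.101).

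Mmp8 (ENSMUSG00000005800, chr9:7558456-7568485, plus strand), the collagenase first described in neutrophils, behaved in another way. It was at 22.1, 23.5 and 22.2 normalized CPM in control, 22.9, 25.004 and 23.7 with IL-4 and 20.3, 22.5 and 20.0 with IL-13, so that both cytokine groups overlapped control but not each other. With IL-4+IL-6 it was at 10.5, 10.4 and 9.96 and with IL-6+IL-13 at 11.2, 10.8 and 11.3, below every library without IL-6. The log2 fold change against control was 0.08 with IL-4 (95% interval from -0.09 to 0.25, adjusted p = 0.395) and -0.11 with IL-13 (95% interval from -0.28 to 0.06, adjusted p = 0.236). IL-6 lowered Mmp8 2.32-fold on IL-4 (log2 fold change -1.21, SE 0.08, adjusted p = 3.45e-09) and 1.88-fold on IL-13 (-0.91, SE 0.08, adjusted p = 2.31e-07). The means of Mmp8 in control, IL-4 and IL-13 lay within 1.14-fold of each other. Granulocyte markers summed to 503 normalized CPM or more in control and to at most 3.16 in the treated libraries, and the part of these cells in the Mmp8 level was not tested.

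Of the gelatinases, which cleave denatured collagen and basement membrane collagen, Mmp9 (ENSMUSG00000017737, chr2:164940780-164955850, plus strand) was at 17.8, 16.4 and 16.5 normalized CPM in control. It was at 29.7, 28.1 and 29.2 with IL-4 and at 15.2, 17.8 and 18.9 with IL-4+IL-6. With IL-13 it was at 21.2, 26.0 and 24.7, and with IL-6+IL-13 at 25.6, 23.1 and 31.6. The IL-4+IL-6 libraries overlapped control, and those of IL-6+IL-13 overlapped IL-13. Mmp9 rose 1.72-fold with IL-4 (log2 fold change 0.78, SE 0.12, adjusted p = 1.47e-05) and 1.42-fold with IL-13 (0.50, SE 0.12, adjusted p = 0.00131). IL-6 lowered it 1.68-fold on IL-4 (log2 fold change -0.75, SE 0.12, adjusted p = 5.13e-05), while on IL-13 the log2 fold change was 0.16 (95% interval from -0.08 to 0.40, adjusted p = 0.354). The effect of IL-6 differed between IL-4 and IL-13 by -0.91 on the log2 scale (SE 0.16, adjusted p = 0.00149).

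Mmp2 (ENSMUSG00000031740, chr8:92827291-92853420, plus strand), the other gelatinase, was scarce. The control libraries held 64, 82 and 48 counts, which is 3.33, 4.54 and 2.69 normalized CPM. The IL-4 libraries held 4, 3 and 6 counts, those of IL-4+IL-6 5, 6 and 3, those of IL-13 15, 12 and 19, and those of IL-6+IL-13 4, 3 and 1. Every treated library was below control, and the IL-13 libraries lay above the other treated ones. Mmp2 fell 14.9-fold with IL-4 (log2 fold change -3.86, SE 0.43, adjusted p = 7.25e-08) and 4.30-fold with IL-13 (-2.09, SE 0.31, adjusted p = 1.27e-05). Adding IL-6 to IL-13 lowered it 5.47-fold (log2 fold change -2.41, SE 0.54, adjusted p = 0.000892), and the counting interval of this ratio ran from 2.58 to 13.6. On IL-4, where 13 counts in 3 libraries were left, the log2 fold change with IL-6 was 0.19, with a 95% interval from -0.97 to 1.34 (adjusted p = 0.817). The IL-6 effects differed by 2.60 (SE 0.77, adjusted p = 0.0384), a call that 13 of 22 alternative analyses lost (adjusted p up to 0.15).

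Mmp14 (ENSMUSG00000000957, chr14:54431612-54445364, plus strand) encodes a membrane-bound MMP that cleaves collagen at the cell surface and activates pro-MMP2. The control libraries held 95.2, 109 and 113 normalized CPM, the IL-4 libraries 1.34, 1.33 and 2.07, and the IL-13 libraries 1.45, 1.29 and 1.34. With IL-4+IL-6 the values were 3.85, 5.59 and 8.06, and with IL-6+IL-13 11.5, 6.56 and 11.7. Each library with IL-6 was above every library with IL-4 or IL-13 alone, and all were far below control. Mmp14 fell 67.0-fold with IL-4 (log2 fold change -6.06, SE 0.29, adjusted p = 1.66e-12) and 77.9-fold with IL-13 (-6.27, SE 0.30, adjusted p = 2.3e-12). IL-6 raised it 3.70-fold on IL-4 (log2 fold change 1.88, SE 0.31, adjusted p = 6.08e-05) and 7.31-fold on IL-13 (2.86, SE 0.31, adjusted p = 5.14e-07). The difference between these effects, -0.98 on the log2 scale, was not called (95% interval from -1.92 to -0.04, adjusted p = 0.248).

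Mmp19 (ENSMUSG00000025355, chr10:128790910-128800824, plus strand), an MMP that cleaves basement membrane proteins, also fell with both cytokines and was higher with IL-6 than without it. Its normalized CPM was 43.8, 42.4 and 42.3 in control, 8.13, 8.91 and 7.63 with IL-4 and 7.81, 10.3 and 9.73 with IL-13. With IL-4+IL-6 it was 15.8, 16.7 and 22.6 and with IL-6+IL-13 19.8, 17.8 and 16.5. The libraries with IL-6 lay between control and those with IL-4 or IL-13 alone, without overlap. Mmp19 fell 5.21-fold with IL-4 (log2 fold change -2.38, SE 0.13, adjusted p = 8.54e-11) and 4.61-fold with IL-13 (-2.21, SE 0.13, adjusted p = 2.77e-10). IL-6 raised it 2.23-fold on IL-4 (log2 fold change 1.16, SE 0.14, adjusted p = 2.52e-06) and 1.94-fold on IL-13 (0.96, SE 0.14, adjusted p = 3.39e-05).

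**Figure D3:**
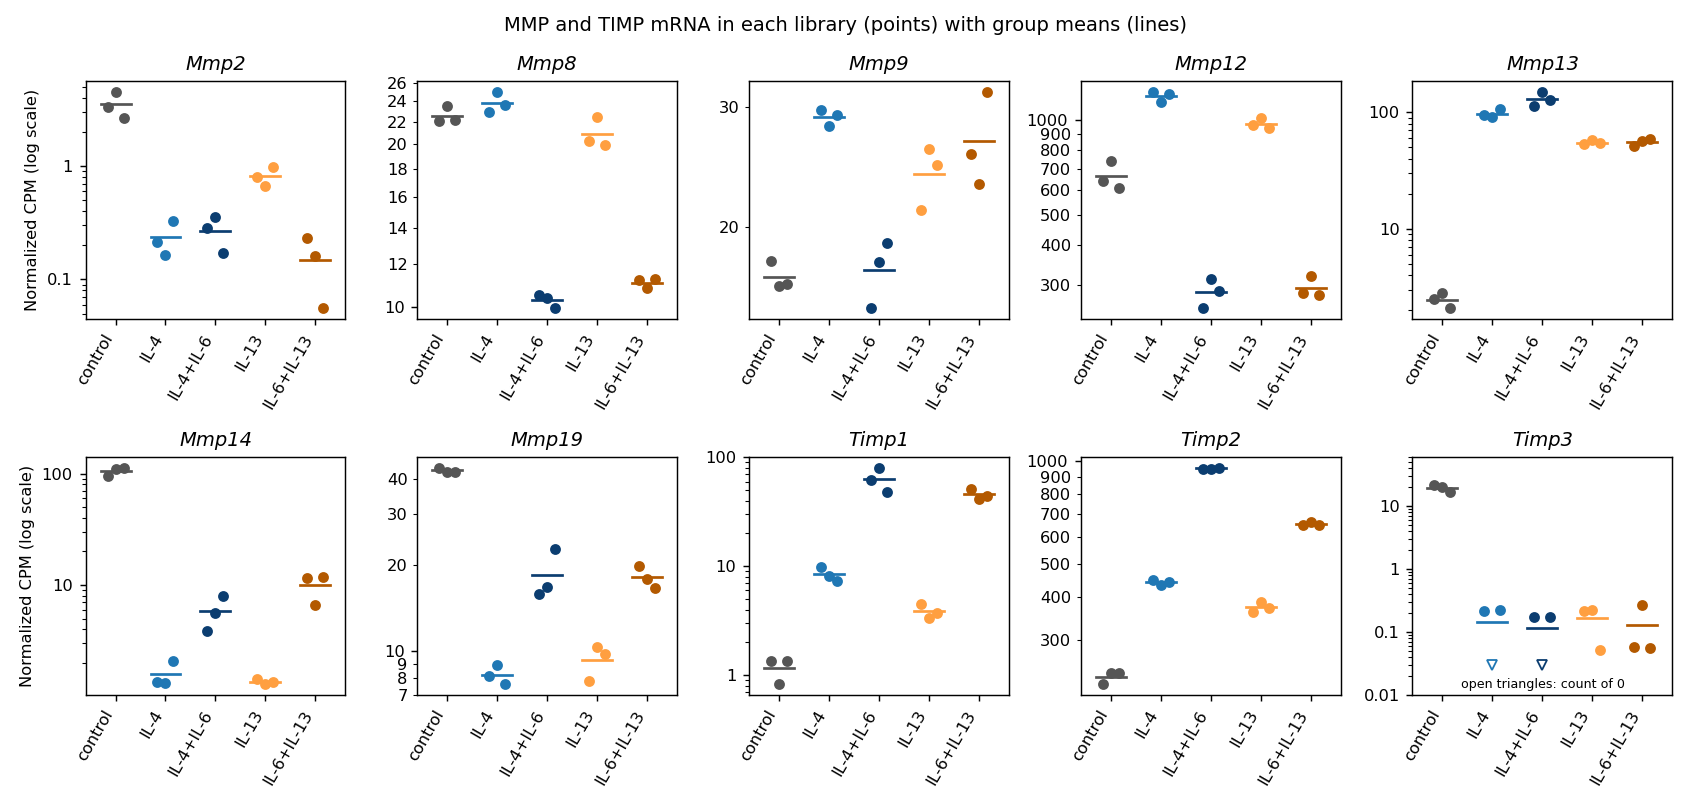
Normalized CPM (log scale, a different range in each panel) of each member in the 15 libraries, with points for libraries, lines for the mean of 3, and open triangles for a count of 0. Mmp13 is below 3 normalized CPM in control and above 51 in every treated library, and Mmp12, Mmp8, Mmp14, Mmp19, Timp1 and Timp2 separate the libraries with IL-6 from those with IL-4 or IL-13 alone.

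Of the inhibitors, Timp2 (ENSMUSG00000017466, chr11:118301069-118355740, minus strand), which binds MMPs broadly and joins MMP14 in the activation of pro-MMP2, was the most abundant per unit of gene length in every group. Its normalized CPM was 223, 240 and 239 in control, 451, 434 and 443 with IL-4 and 949, 952 and 958 with IL-4+IL-6. With IL-13 it was 363, 387 and 373 and with IL-6+IL-13 650.1, 666 and 650.2. No 2 groups overlapped, and their order was IL-4+IL-6, IL-6+IL-13, IL-4, IL-13 and control. Timp2 rose 1.89-fold with IL-4 (log2 fold change 0.92, SE 0.05, adjusted p = 1.06e-10) and 1.60-fold with IL-13 (0.68, SE 0.05, adjusted p = 7.48e-09). IL-6 raised it 2.15-fold on IL-4 (log2 fold change 1.11, SE 0.05, adjusted p = 2.21e-11) and 1.75-fold on IL-13 (0.81, SE 0.05, adjusted p = 2.53e-09). The effect of IL-6 was larger on IL-4 by 0.30 on the log2 scale (SE 0.07, adjusted p = 0.0169), a call lost when IL-4 replicate 2 or 3 or IL-6+IL-13 replicate 1 or 3 was left out (adjusted p up to 0.0648) or when no low-count filter was used (adjusted p = 0.209).

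Timp1 (ENSMUSG00000001131, chrX:20870166-20874735, plus strand), an inducible secreted inhibitor, was low in control and rose with every treatment. The control libraries held 1.35, 0.831 and 1.35 normalized CPM, the IL-4 libraries 9.84, 8.13 and 7.31, and the IL-13 libraries 4.55, 3.38 and 3.71. With IL-4+IL-6 the values were 61.995, 80.6 and 48.1, and with IL-6+IL-13 50.8, 41.7 and 44.3. The groups did not overlap except for both combinations with IL-6. Timp1 rose 7.16-fold with IL-4 (log2 fold change 2.83, SE 0.29, adjusted p = 3.95e-08) and 3.30-fold with IL-13 (1.71, SE 0.30, adjusted p = 6.28e-05). IL-6 raised it 7.54-fold on IL-4 (log2 fold change 2.91, SE 0.17, adjusted p = 3.88e-10) and 11.8-fold on IL-13 (3.55, SE 0.20, adjusted p = 1.89e-10). Against control this made 54.0-fold in IL-4+IL-6 and 38.8-fold in IL-6+IL-13. The difference between the IL-6 effects was -0.64 on the log2 scale and was not called (95% interval from -1.19 to -0.09, adjusted p = 0.176).

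Timp3 (ENSMUSG00000020044, chr10:86300372-86349506, plus strand), the inhibitor that binds to the extracellular matrix, was found almost only in control. The control libraries held 405, 356 and 293 counts, which is 21.1, 19.7 and 16.4 normalized CPM. The IL-4 libraries held 4, 0 and 4 counts, those of IL-4+IL-6 3, 0 and 3, those of IL-13 4, 4 and 1, and those of IL-6+IL-13 1, 5 and 1. The 12 treated libraries thus ranged from 0 to 5 counts, at or near the limit of detection, so that Timp3 passed the filter on low counts only through control. From summed counts, Timp3 was 132-fold lower with IL-4 (counting interval from 66.6 to 306) and 119-fold lower with IL-13 (from 62.3 to 260.4), with adjusted p = 6.71e-11 and 1.07e-10 in the edgeR test. As Timp3 was tested only through the group where it was high, these p-values are no evidence of their own. No change with IL-6 was detectable at this depth, and the counting intervals of the ratio without to with IL-6 ran from 0.383 to 4.40 on IL-4 and from 0.410 to 3.91 on IL-13.

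The falls of Mmp14, Timp3, Mmp2 and Mmp19 in treated cells moved with the sums of granulocyte, megakaryocyte, stromal and mast cell markers given above, and the part of these cells in the falls was not tested. The changes with IL-6 were measured between treated groups, in which granulocyte markers summed to at most 3.16 normalized CPM and stromal markers to at most 0.719. Osteoclast markers, which include genes of bone-resorbing relatives of macrophages, were lower with IL-6 on both cytokines, at 512 to 534 in IL-4+IL-6 against 699 to 747 in IL-4 and at 338 to 346 in IL-6+IL-13 against 481 to 506 in IL-13. The sum of macrophage markers was also lower with IL-6, at 12388 to 14793 in IL-4+IL-6 against 16053 to 16541 in IL-4. On IL-13 this sum was 15969 to 17167 with IL-6 against 18501 to 21601 without it. Single macrophage markers went both ways. On IL-4, 3 of the 10 were called higher and 5 lower, where 20.7% and 18.7% of all genes were. On IL-13, 5 were called higher and 2 lower, where 12.1% and 13.5% of all genes were. Their median log2 fold change was -0.10 on IL-4 and 0.33 on IL-13. Endothelial marker sums, which rest mostly on 1 or 2 genes, were higher with IL-6 on IL-13, without overlap. On IL-4 their median was 14.9 against 10.9 with ranges that overlapped. The part of any of these cell types in the changes with IL-6 was not tested.

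Levels of different genes were compared as FPKM, which divides counts by gene length, and the sums below are descriptions without a test. The 7 MMPs summed to 144 ± 9.18 FPKM in control, 224 ± 6.79 with IL-4, 178 ± 8.38 with IL-13, 97.5 ± 8.89 with IL-4+IL-6 and 78.7 ± 2.92 with IL-6+IL-13 (SD, n = 3). The 3 TIMPs summed to 66.6 ± 1.94 FPKM in control, 125 ± 3.28 with IL-4, 103 ± 3.63 with IL-13, 298 ± 3.94 with IL-4+IL-6 and 215 ± 3.47 with IL-6+IL-13. The ratio of MMP to TIMP FPKM was 2.16 ± 0.14 in control, 1.80 ± 0.05 with IL-4 and 1.73 ± 0.03 with IL-13, but 0.327 ± 0.032 with IL-4+IL-6 and 0.367 ± 0.017 with IL-6+IL-13. MMP mRNA thus exceeded TIMP mRNA in the 9 libraries without IL-6 and was below it in the 6 libraries with IL-6. Mmp12 made up 66.5% of the MMP sum in control, 74.2% with IL-4, 77.5% with IL-13, 38.002% with IL-4+IL-6 and 50.5% with IL-6+IL-13. The share of Mmp13 was 0.669% in control, 16.5% with IL-4, 11.9% with IL-13, 47.1% with IL-4+IL-6 and 25.9% with IL-6+IL-13, so that it exceeded Mmp12 in IL-4+IL-6. Timp2 made up at least 91.2% of the TIMP sum in each library without IL-6, and Timp1 18.0% to 27.1% of it in the libraries with IL-6. These sums weight each gene by its mRNA and say nothing of protein or activity.

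**Figure D4:**
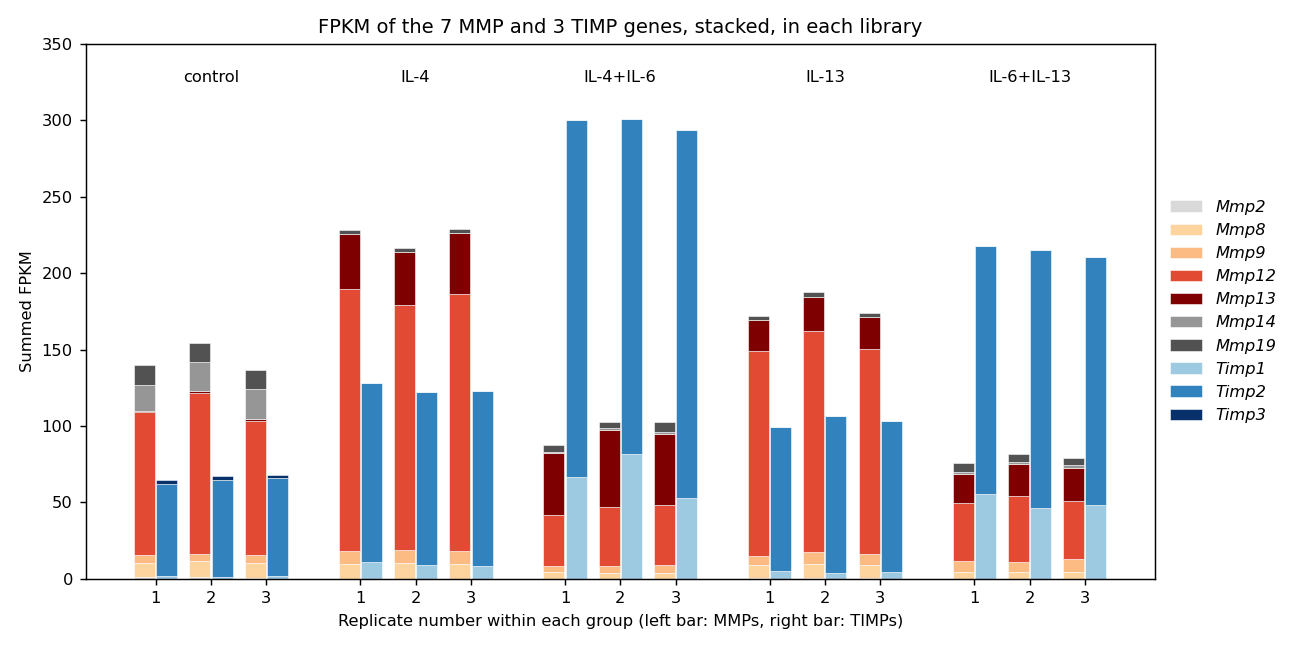
FPKM of the 7 MMP genes (left bar of each pair) and the 3 TIMP genes (right bar), stacked by gene, in each of the 15 libraries. The MMP bar is taller than the TIMP bar in control, IL-4 and IL-13, and the TIMP bar, mostly Timp2, is taller in the 6 libraries with IL-6.

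IL-4 at 10 ng/ml and IL-13 at 40 ng/ml, which signal through the shared IL-4 receptor alpha chain, were set side by side although their doses differ. Timp1 was 2.17-fold higher with IL-4 than with IL-13 (log2 fold change 1.12, SE 0.21, adjusted p = 0.00131), Mmp13 1.77-fold (0.83, SE 0.10, adjusted p = 1.35e-05) and Timp2 1.18-fold (0.24, SE 0.05, adjusted p = 0.00454). Mmp2 was 3.47-fold lower with IL-4 (log2 fold change -1.77, SE 0.46, adjusted p = 0.0109), a call lost without IL-4 replicate 2 or IL-13 replicate 3 (adjusted p up to 0.0585). With Mmp12, 4 members were called higher and 1 lower, where 5.16% and 7.61% of all genes were called. Mmp14 did not pass the test, with a log2 fold change of 0.21 and a 95% interval from -0.59 to 1.02, and neither did Mmp8, Mmp9, Mmp19 and Timp3.

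Between IL-4+IL-6 and IL-6+IL-13, Mmp13 was 2.33-fold higher in IL-4+IL-6 (log2 fold change 1.22, SE 0.10, adjusted p = 5e-08) and Timp2 1.45-fold (0.54, SE 0.05, adjusted p = 4.42e-07). Mmp9 was 1.55-fold lower (log2 fold change -0.63, SE 0.12, adjusted p = 0.000494). Timp1 was 1.39-fold higher and Mmp14 1.70-fold lower (adjusted p = 0.0229 and 0.0162), but the libraries of both genes overlapped. The Timp1 call was lost without IL-4+IL-6 replicate 2 or IL-6+IL-13 replicate 2 or 3, and the Mmp14 call without IL-4+IL-6 replicate 1 or IL-6+IL-13 replicate 1 or 3 (adjusted p up to 0.129). Both calls were also lost when only the compared libraries were fitted (adjusted p = 0.0768 and 0.0915), and that of Mmp14 with limma voom (adjusted p = 0.0773). Of all genes, 15.8% were called higher and 15.5% lower in this comparison.

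Against control, IL-4+IL-6 had 3 members called higher, namely Mmp13, Timp1 and Timp2, and 6 lower, where 35.4% of all genes were called higher and 37.5% lower. Mmp9 did not pass that test, with a log2 fold change of 0.03 and a 95% interval from -0.22 to 0.29. IL-6+IL-13 had Mmp9, Mmp13, Timp1 and Timp2 called higher and 6 members lower, where 31.9% of all genes were called higher and 32.1% lower. Both combinations used the same control libraries. Timp3 is among the 6 lower members in each, and its calls are no evidence of their own, since it passed the filter only through control.

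Whether IL-6 acted differently on IL-4 and on IL-13 was tested with an interaction term, which called Mmp2 and Timp2 as more positive on IL-4 and Mmp9 as more negative, where 3.22% and 4.42% of all genes were called in these directions. For Mmp8, Mmp12, Mmp13, Mmp14, Mmp19, Timp1 and Timp3 no difference was called, and the 95% intervals of Mmp8, Mmp12, Mmp13, Mmp14 and Timp1 did not include 0 before adjustment over all genes.

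**Figure D5:**
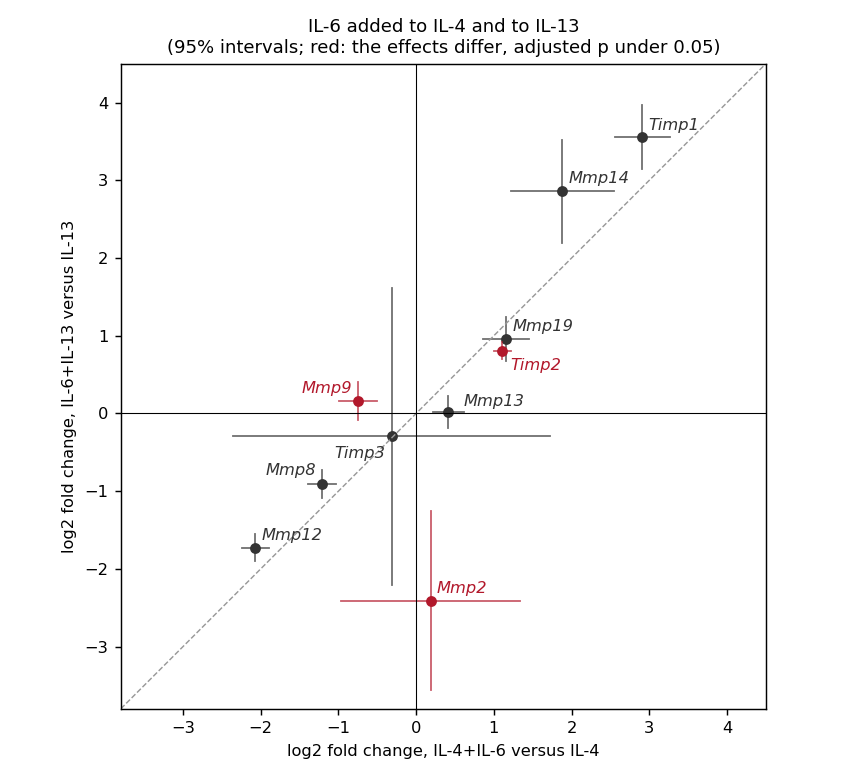
Log2 fold change on adding IL-6 to IL-4 (horizontal axis) and to IL-13 (vertical axis) for each member, with 95% intervals as bars, the diagonal of equal effects dashed, and members whose effects differed in red. Timp1, Mmp14, Mmp19 and Timp2 lie in the upper right and Mmp12 and Mmp8 in the lower left, while Mmp9 is lower on IL-4 only and Mmp2 on IL-13 only, the interaction of Mmp2 being lost in 13 of 22 alternatives.

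Other genes of matrix turnover were counted from lists chosen with earlier results known. Their counts are to be read against the shares called higher and lower among all genes tested, which were 32.1% and 35.9% with IL-4, 29.0% and 31.1% with IL-13, 20.7% and 18.7% with IL-6 on IL-4, and 12.1% and 13.5% with IL-6 on IL-13. The median log2 fold change over all genes was -0.05, -0.02, 0.04 and 0.01 in these comparisons. Of the other 17 MMP and TIMP genes, 5 passed the filter on low counts, and 2 were higher and 1 lower with IL-4, 2 and 1 with IL-13, 1 and 1 with IL-6 on IL-4, and 0 and 1 with IL-6 on IL-13. Mmp10, a stromelysin, had 0 counts in control and 100 in the 3 IL-4 libraries, which is at least 33.3-fold higher against a limit of 3 counts over the group (adjusted p = 6.52e-07), and 67 counts with IL-13, at least 22.0-fold higher (adjusted p = 4.79e-06). Mmp10 passed the filter only through the treated groups, so its place among the higher calls is no evidence of its own. Mmp28 rose 2.05-fold with IL-4 (adjusted p = 0.0231) and 2.67-fold with IL-13 (adjusted p = 0.00318), and IL-6 lowered it 4.45-fold on IL-4 (adjusted p = 0.000765) and 2.04-fold on IL-13 (adjusted p = 0.0418). The gene called lower was Mmp25, a membrane-anchored MMP, with 150 counts in the 3 control libraries, 3 with IL-4 and 4 with IL-13. It passed the filter only through control, so its place among the lower calls is no evidence of its own, and it moved with the granulocyte markers. Mmp11 was the gene called higher with IL-6 on IL-4, at 1.25 against 0.309 normalized CPM (adjusted p = 0.00448). Its mean was 0.325 in control, 0.452 in IL-13 and 0.499 in IL-6+IL-13. It thus entered testing mainly through IL-4+IL-6, and its call is no evidence of its own. Mmp25 and Mmp11 were named after their values were seen. The list's median log2 fold change was -0.08 with IL-4, 0.45 with IL-13, 0.14 with IL-6 on IL-4 and 0.16 with IL-6 on IL-13.

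Of 17 activators, receptors and non-TIMP inhibitors of MMPs, 12 were tested, and 2 were higher and 6 lower with IL-4, 1 and 5 with IL-13, 1 and 6 with IL-6 on IL-4, and 1 and 5 with IL-6 on IL-13. Plau, the urokinase that makes the MMP-activating protease plasmin, rose 5.68-fold with IL-4 and 8.69-fold with IL-13 (adjusted p = 4.65e-14 and 1.44e-14), and IL-6 lowered it 2.99-fold and 2.77-fold (adjusted p = 1.86e-11 and 8.1e-11). Plaur, the urokinase receptor, was lowered by IL-6 1.94-fold on IL-4 and 1.68-fold on IL-13 (adjusted p = 6.81e-08 and 2.43e-06). Thbs1 and Lcn2, the latter a neutrophil protein that binds MMP9, fell 223-fold and 138-fold with IL-4, and the marker sums of granulocytes and megakaryocytes fell with them. Lcn2, with at most 10 counts in any treated library, passed the filter only through control, so its lower call is no evidence of its own. The median log2 fold change of these genes was -0.31 with IL-4 and -0.05 with IL-13, and it was -0.89 with IL-6 on IL-4 and -0.32 with IL-6 on IL-13.

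Of 15 other matrix-degrading enzymes, 12 were tested, and 5 were higher and 6 lower with IL-4, 4 and 7 with IL-13, 5 and 4 with IL-6 on IL-4, and 5 and 1 with IL-6 on IL-13. Adam8 rose 3.62-fold with IL-4 and 3.13-fold with IL-13 (adjusted p = 1.31e-13 and 9.42e-13). Adam19 fell 4.72-fold and 5.54-fold (adjusted p = 2.7e-06 and 1.41e-06), and Hpse, which encodes the heparan sulfate-cleaving enzyme heparanase, fell 3.83-fold and 2.90-fold (adjusted p = 1.9e-11 and 4.27e-10). IL-6 raised Ctsl, which encodes cathepsin L, 2.51-fold on IL-4 and 2.31-fold on IL-13 (adjusted p = 3.71e-10 and 2.44e-09), and Adam9 2.04-fold and 2.32-fold (adjusted p = 3.35e-09 and 7.97e-10). Their median log2 fold change was -0.07 with IL-4, -0.26 with IL-13, 0.12 with IL-6 on IL-4 and 0.23 with IL-6 on IL-13.

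Of 15 matrix substrates, 10 were tested, and 1 was higher and 8 lower with IL-4, 2 and 6 with IL-13, 3 and 0 with IL-6 on IL-4, and 4 and 1 with IL-6 on IL-13. Fn1, which encodes fibronectin, rose 9.93-fold with IL-4 and 5.19-fold with IL-13, and IL-6 raised it a further 4.15-fold and 5.14-fold (adjusted p from 4.71e-08 to 1.04e-10). IL-6 also raised Spp1, which encodes osteopontin, 2.67-fold on IL-4 and 4.28-fold on IL-13 (adjusted p = 9.67e-09 and 1.46e-10), and Vcan, which encodes versican, 11.1-fold and 7.99-fold (adjusted p = 3.56e-09 and 5.57e-08). Col1a1 was at 0 in all treated libraries and moved with the stromal markers, to which it belongs. The median log2 fold change of the substrates was -2.99 with IL-4, -1.07 with IL-13, 0.08 with IL-6 on IL-4 and 0.07 with IL-6 on IL-13. Col1a1 and Col5a1 were at 0 in all treated groups, and Col1a2 in all but IL-13, where it had 1 count. These genes passed the filter only through control, so any lower call of theirs against control is no evidence of its own. They entered the medians with IL-4 and IL-13 with fitted values that depend on the prior count. In the medians with IL-6 they had almost no counts to compare.

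The genes whose log2 CPM followed each member most closely over the 15 libraries are given as a description, since the libraries form only 5 groups and share their scaling. For Timp1 they were Ccl8 (Pearson r = 0.994), Ccl12 (0.993) and P2ry6 (0.987), and for Timp2 Il1rap, Clcn5 and Snx2 (0.991 to 0.992). For Mmp13 they were Set (0.996), Impdh2 (0.995) and Hspa4 (0.994), for Mmp12 Ercc6, Gm6209 and Haus8 (0.974 to 0.979), and for Mmp8 Itgax (0.988), Arhgap25 and Blnk. Mmp14 was followed by 1600014C10Rik, Mxd1 and Lrg1 (0.980 to 0.988), Mmp19 by Gnpda1, Atp13a2 and Inpp4a (0.977 to 0.980), and Timp3 by Fbxl20, the megakaryocyte marker Itga2b and Fscn1 (0.983 to 0.989). For Mmp2 they were Mycl, Spata13 and Fam107b (0.956 to 0.957), and Mmp9 had the lowest values, with Vipas39, Phf11a and Nrros (0.893 to 0.913).

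Genes that overlap a member were checked, because the strand setting of the counts is not given. Timp1 lies within Syn1 on the other strand, which held 30 to 188 counts in the 15 libraries, and Timp1 held 15 to 1368. Syn1 held more counts than Timp1 in control (30 to 55 against 15 to 26) and in IL-13 (133 to 164 against 60 to 85), and in IL-4 it held 120 to 148 against 134 to 184. The Timp1 levels of these 3 groups, and the fold changes that rest on them, are uncertain if reads of both strands were counted together. Tmem198b, which overlaps Mmp19, held 55 to 158 counts, Cep295nl, which overlaps Timp2 on the same strand, 6 to 119, and Syn3, which holds Timp3 on the other strand, 0 to 5. Gm47093, antisense to Mmp19, held 0 to 3 counts, and Mmp1b, antisense to Mmp12, held 0 in each library.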

How the data were processed

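RNA of 15 BMDM libraries, 3 in each of 5 groups, was sequenced. The authors deposited raw counts per Ensembl gene and FPKM values for 26080 genes. The deposited FPKM values equal counts divided by a gene length and the library total (checked on 10519 genes). The submitters' processing notes name CASAVA, Bowtie2 2.2.3, HISAT2 2.1.0, TopHat2, DESeq2 and GRCm38; the counting tool and its strand setting are not given in the sources used here. Symbols were found for 53274 of 53465 genes, and positions come from the GENCODE annotation of GRCm38.

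Counts were analysed with edgeR 4.0.16 in R 4.3.3 (filterByExpr with a minimum count of 10, TMM factors, quasi-likelihood test, Benjamini-Hochberg adjustment) in a fit of all 15 libraries with 9 contrasts. Intervals of 95% use the t quantile of the fit, and those called counting intervals cover counting error only. PCR duplicates cannot be seen in the counts. The alternatives were DESeq2 1.42.0, limma 3.58.1 (voom with sample weights and a variance per group), upper-quartile factors, other filters, a replicate block, fits of the compared groups only and omission of each library. The edgeR, DESeq2 and voom tests were tested on simulated data. Marker sums and similar genes (log2 CPM, prior count 2) are descriptive. Named genes were the 10 members, up to 4 list genes per comparison with the largest changes among those called above 1 normalized CPM on average, and the 3 most correlated genes; Mmp25, Mmp11 and Col5a1 fall outside this rule and were named after their values were seen. The members and lists were chosen with earlier results of these data known.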

Additional observations from a re-analysis of the deposited data

Results flagged for a closer look

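The effect of IL-6 on 3 members differed between IL-4 and IL-13 by edgeR's interaction test. The log2 effect on IL-4 minus that on IL-13 was 2.60 for Mmp2 (adjusted p = 0.0384), which rests on 1 to 19 counts per treated library. It was -0.91 for Mmp9 (adjusted p = 0.00149), which fell with IL-6 on IL-4 and did not pass the test on IL-13. It was 0.30 for Timp2 (adjusted p = 0.0169), which rose on both. The doses of IL-4 and IL-13 differed, and the part of the dose was not tested.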

How the results depend on the processing

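Of 1973 member values under 7 alternatives and the omission of each of 15 libraries, 33 lost and 7 gained a call and 0 reversed a called direction, and all of these concern IL-4 against IL-13, both combinations with IL-6, or the interaction. In each omission 9 members were called with IL-4 and with IL-13 against control, 8 with IL-6 on IL-4 and 7 with IL-6 on IL-13. When only the libraries compared were fitted, IL-4+IL-6 against IL-6+IL-13 gave 2900 genes and 3 members called, in place of 4368 and 5. With single libraries left out, genes called in IL-4 against IL-13 (1779) ranged from 1088 to 2914, and this count moved by over 1.5 times without IL-4 replicate 2 or 3, IL-13 replicate 1, 2 or 3, or IL-4+IL-6 replicate 2. Member calls ranged from 3 to 5 (5 with all libraries) there and between both combinations, and from 1 to 4 (3) for the interaction. No clear pairing by replicate number was seen, with 3 of 30 same-numbered pairs correlated above 0.1. Pairs with different numbers were not compared, so pairing is not excluded. With the replicate block the Mmp2 interaction (2.60) was lost (adjusted p = 0.0573) and no other member call changed. Without a low-count filter the interactions of Mmp12, Mmp14 and Timp1 passed, and those of Mmp2 and Timp2 were lost (adjusted p = 0.0555 and 0.209). With upper-quartile factors the interaction of Mmp12 passed (adjusted p = 0.0453). Upper-quartile scaling shifted the median of all genes by at most 0.0877 on the log2 scale. Mmp2 and Timp3 have too few counts in treated cells to resolve moderate changes.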
